A study of Mus musculus with 8 samples.

Results

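The Ms4a genes described here are the members of the membrane-spanning 4A family that macrophages and monocytes of the mouse are known to transcribe, namely Ms4a4a, Ms4a4c, Ms4a6b, Ms4a6c, Ms4a6d, Ms4a7 and Ms4a14. They were taken as the rows of the deposited count table whose Ensembl identifiers carry these symbols. All 7 were found among the 56748 rows, and all 7 were among the 16780 genes with enough counts to be tested. The set was proposed with results of this comparison known, so the difference between the groups is described for each member and is no independent evidence about the set.

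The libraries hold RNA of F4/80 bead-selected cells from inguinal fat pads of WT female mice. The Aldara group (4 libraries) received about 62.5 mg of Aldara cream with 5% imiquimod on the shaved skin of the back, once a day for 3 consecutive days; imiquimod activates Toll-like receptor 7. The Vehicle group (4 libraries) received an equivalent volume of Boots Aqueous Cream/10% Vaseline Lanette Cream on the same days. Tissue was collected 24 h after the last dose. Imiquimod and other constituents that Aldara may hold and the control cream lack cannot be told apart. Each library pooled the cells of 6 fat pads, about 30000 cells, from preparations in which over 90% of cells carried F4/80 and CD64 by flow cytometry. For the age of the mice no value was given in the sources used here. Whether pools of the same group shared animals is not stated in the labels, and the p-values measure the spread between pools.

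MS4A proteins cross the membrane several times and sit at the cell surface or in endosomes, where several of them associate with other receptors and tune their signals. The best known are Ms4a1, the B cell antigen CD20, and Ms4a2, the signal-amplifying beta chain of the high-affinity IgE receptor. Among the macrophage members, MS4A4A associates with the beta-glucan receptor Dectin-1 (Clec7a), and variants at the human MS4A4A and MS4A6A genes are tied to the level of soluble TREM2. In mouse macrophages Ms4a6d acts with the complement receptor Vsig4 to restrain Nlrp3 and Il1b.

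The 7 genes lie together on mouse chromosome 19 (GRCm38, GENCODE M21). Ms4a14 (ENSMUSG00000099398) spans chr19:11301249-11314454 on the minus strand, and Ms4a7 (ENSMUSG00000024672) spans chr19:11321039-11336146 on the same strand. The plus strand holds Ms4a4a (ENSMUSG00000101389) at chr19:11375523-11392790 and Ms4a4c (ENSMUSG00000024675) at chr19:11404770-11427246. It also holds Ms4a6c (ENSMUSG00000079419) at chr19:11469366-11482192 and Ms4a6b (ENSMUSG00000024677) at chr19:11516512-11531256. Ms4a6d (ENSMUSG00000024679) closes the stretch at chr19:11586604-11604849 on the minus strand.

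The sequences before the transcript starts are shown for 4 members because the results turn on them: Ms4a7 with the largest rise, Ms4a4c with the fall, and the related genes Ms4a6c and Ms4a6b. They come from RefSeq's table (GRCm38.p6), which had entries for 6 of the 7 members and not for Ms4a6d. Each is 250 bases long and ends just before a RefSeq transcript start, except that of Ms4a6b, which is shown for its first 171 bases (chr19:11518309-11518479, plus strand). The others are chr19:11469118-11469367 (plus strand) for Ms4a6c, chr19:11336147-11336396 (minus strand) for Ms4a7 and chr19:11407411-11407660 (plus strand) for Ms4a4c. The windows of Ms4a6b and Ms4a4c lie inside the GENCODE gene spans given above, so they do not precede the outermost annotated start. Of the Ms4a6b window 106 bases are annotated as untranslated region, 27 of them in the part shown. Capitals mark AGGAAGT, the core letters bound by PU.1, the myeloid transcription factor encoded by Spi1.
Ms4a6c: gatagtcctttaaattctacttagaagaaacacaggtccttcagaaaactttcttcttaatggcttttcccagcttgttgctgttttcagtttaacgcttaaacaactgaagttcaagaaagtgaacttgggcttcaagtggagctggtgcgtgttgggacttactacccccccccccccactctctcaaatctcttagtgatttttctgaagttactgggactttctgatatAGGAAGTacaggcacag
Ms4a6b: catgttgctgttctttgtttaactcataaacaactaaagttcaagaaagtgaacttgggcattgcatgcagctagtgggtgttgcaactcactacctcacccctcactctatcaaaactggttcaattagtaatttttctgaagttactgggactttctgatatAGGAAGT
Ms4a7: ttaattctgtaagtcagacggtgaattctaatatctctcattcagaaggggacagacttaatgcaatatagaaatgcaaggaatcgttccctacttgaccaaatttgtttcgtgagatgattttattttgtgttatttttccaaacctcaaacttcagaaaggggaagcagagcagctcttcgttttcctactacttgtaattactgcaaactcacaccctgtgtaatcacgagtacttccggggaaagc
Ms4a4c: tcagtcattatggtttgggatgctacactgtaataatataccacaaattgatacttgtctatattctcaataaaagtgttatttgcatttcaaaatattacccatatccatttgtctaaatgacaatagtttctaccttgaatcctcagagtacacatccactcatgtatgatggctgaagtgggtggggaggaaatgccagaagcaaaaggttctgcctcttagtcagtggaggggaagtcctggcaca

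The Ms4a6c and Ms4a6b windows are relatives: 149 of 175 aligned bases were identical (85.1%), against 49.6% to 64.3% in the other 19 pairs of windows from different members. Both hold AGGAAGT in the same stretch, at -17 to -11 before the start in Ms4a6c and at -86 to -80 in Ms4a6b. Ms4a6b holds the reverse complement ACTTCCT as well, at -43 to -37. That match falls in the unshown part of the window, all of it annotated as untranslated region. The Ms4a6b AGGAAGT ends the part shown and borders that region. Both Ms4a6b matches may thus lie in annotated transcript rather than before it. No other member's window held this core on either strand. It occurs in 7.69% of the 32851 windows of the same length in the table. On both strands, TGANTCA, a loose form of the AP-1 site TGA(C/G)TCA, was searched for and occurs in 6.75% of all windows. It was found as TGACTCA at -32 to -26 in Ms4a14 and as TGATTCA before an alternative start of Ms4a7. The Ms4a7 match lacks the C or G at the middle base of that site. The interferon-stimulated response element (2.98% of all windows) was in none of the 7 windows, nor were TTGCNNAA of C/EBP (9.56%), TTCNNNGAA of STAT factors (7.02%) or the composite element of PU.1 with IRF (2.30%). The composite element can share letters with AGGAAGT and with the interferon-stimulated response element. These matches describe letters only.

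Levels are in CPM (counts scaled by library total and TMM factor), and the log2 fold change sets Aldara over Vehicle, with its standard error (SE). Adjusted p-values come from edgeR's quasi-likelihood test with Benjamini-Hochberg adjustment over the 16780 genes, with a threshold of 0.05. By that rule 3 members rose (Ms4a7, Ms4a14 and Ms4a6c), 1 fell (Ms4a4c), and Ms4a6d, Ms4a6b and Ms4a4a did not pass. Over all tested genes 6.98% rose and 3.86% fell. Groups did not overlap for 3 members above Vehicle and 1 below, whereas 9.97% of all tested genes had every Aldara library above every Vehicle library and 7.79% had every one below. The median log2 fold change was 0.93 over the members and 0.01 over all tested genes. The members were chosen with this contrast known, so nothing is read from these shares.

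The libraries were not alike in the level of general macrophage genes, and the part of macrophage RNA content in this was not tested. Total counts were 19537607 to 24340674 in Aldara and 21874780 to 34471508 in Vehicle. Over 16 general macrophage genes such as Lyz2, C1qb and Adgre1 (F4/80), the geometric mean level was 139, 199, 367 and 342 CPM in Aldara 1 to 4, against 60.7, 84.8, 112 and 86.0 CPM in Vehicle 1 to 4. Of these 16 genes 11 rose, 0 fell and 5 did not pass, with a median log2 fold change of 1.51. With no filter on low counts 5 rose, whereas 15 rose with DESeq2 and 15 with libraries paired by replicate number. The 10 epithelial markers, which F4/80+ cells should lack, summed to 10178 to 13062 CPM in Aldara and 9725 to 13404 CPM in Vehicle. The macrophage genes summed to 3915 to 10614 CPM in Aldara and 1661 to 3383 CPM in Vehicle, less than the epithelial markers in every library but Aldara 3. Fibroblast markers summed to 69.2 to 145 CPM in Aldara and 213 to 583 CPM in Vehicle, and the part of these other cells in the members' levels was not tested. In RNA of sorted pools, fewer cells of a type and less RNA per cell cannot be told apart from a gene's level alone.

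Ms4a7, a gene of mature and tissue-border macrophages in the mouse, had the largest fold change among the members. It was at 35.9, 49.7, 102 and 108 CPM in Aldara 1 to 4, against 7.41, 10.3, 22.1 and 15.0 CPM in Vehicle 1 to 4. Even the lowest Aldara library stood above the highest Vehicle library, although both groups spread widely. The mean was 73.9 ± 36.4 CPM in Aldara and 13.7 ± 6.4 CPM in Vehicle (SD, n = 4 each), a 5.34-fold difference (log2 fold change 2.42, SE 0.43, adjusted p = 0.00985). The call held without each of the 8 libraries in turn (adjusted p 0.00657 to 0.0391) and was lost with no filter on low counts (adjusted p = 0.0606).

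Ms4a14, the neighbour of Ms4a7 on the same strand, had 6.4, 11.4, 15.3 and 19.96 CPM in Aldara 1 to 4, against 2.72, 3.11, 5.96 and 4.30 CPM in Vehicle 1 to 4. The groups did not overlap, but Aldara 1 and Vehicle 3 lay close together. The log2 fold change was 1.70 (SE 0.36, adjusted p = 0.0172). It no longer passed without Aldara 3 (adjusted p = 0.0503), without Vehicle 2 (0.0538) or with no filter on low counts (0.0765). In reads, Ms4a14 was worth 0.179, 0.229, 0.150 and 0.185 of Ms4a7 in Aldara 1 to 4, against 0.367, 0.301, 0.270 and 0.288 in Vehicle 1 to 4. Ms4a14 had fewer reads than Ms4a7 in all 8 libraries, and the ratio was lower in every Aldara library than in any Vehicle library.

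Ms4a6c, a monocyte and macrophage gene of the mouse, was at 20.3, 31.9, 60.7 and 72.0 CPM in Aldara 1 to 4, against 10.9, 17.8, 19.1 and 12.2 CPM in Vehicle 1 to 4. Aldara 1 was just above Vehicle 3, and Aldara 3 and 4 stood far above all others. The mean was 46.2 ± 24.2 CPM in Aldara and 15.0 ± 4.03 CPM in Vehicle (SD, n = 4 each), with a log2 fold change of 1.62 (SE 0.38, adjusted p = 0.0280). This call was lost without Aldara 3, without Aldara 4, or without Vehicle 1, 2 or 4 (adjusted p up to 0.0896), and with no filter on low counts (0.135). The antisense gene BE692007 shares 1088 exon bases with Ms4a6c, 53.1% of its exon length. The library kit does not mark the strand, so their reads cannot be told apart. BE692007 itself had 72, 115, 185 and 188 counts in Aldara 1 to 4, against 62, 50, 138 and 64 in Vehicle 1 to 4, beside 475, 801, 1474 and 1353 counts of Ms4a6c in Aldara and 233, 389, 675 and 379 in Vehicle.

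Ms4a4c, a gene of inflammatory monocytes that interferons can induce in the mouse, was the member that fell. It had 1.75, 2.47, 4.2 and 3.83 CPM in Aldara 1 to 4, against 5.20, 5.67, 7.79 and 5.04 CPM in Vehicle 1 to 4. All Aldara libraries lay below all Vehicle libraries, with the gap between Aldara 3 and Vehicle 4 the smallest. The mean was 3.06 ± 1.15 CPM in Aldara and 5.93 ± 1.27 CPM in Vehicle (SD, n = 4 each), with a log2 fold change of -0.96 (SE 0.28, adjusted p = 0.0479). The call sat close to the threshold. It was lost without any library other than Aldara 3, with adjusted p up to 0.130. Behind these levels stand 41 to 102 counts per Aldara library and 111 to 276 per Vehicle library. Of its 1747 exonic 50-base words, 8.19% also occur in other genes, mostly in Ms4a4b, which had 0 to 9 counts in Aldara and 1 to 11 in Vehicle.

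Ms4a6d, the partner of Vsig4, did not pass the test. It had 18.0, 29.9, 60.8 and 60.6 CPM in Aldara 1 to 4, against 19.5, 24.1, 24.9 and 20.5 CPM in Vehicle 1 to 4. Vehicle libraries were tightly grouped (the highest 1.28 times the lowest), whereas Aldara 1 lay below them all and Aldara 3 and 4 were far above. The log2 fold change was 0.93 (SE 0.35, adjusted p = 0.127). It passed without Aldara 1 (adjusted p = 0.0102) and with DESeq2 (0.0307).

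Ms4a6b, which in the mouse is expressed by T cells as well as macrophages, had 22.2, 33.9, 60.0 and 73.0 CPM in Aldara 1 to 4, against 15.0, 26.6, 35 and 23.9 CPM in Vehicle 1 to 4. Aldara 1 and 2 lay within the Vehicle range and Aldara 3 and 4 above it. The log2 fold change was 0.91 (SE 0.37, adjusted p = 0.162), and with libraries paired by replicate number it passed (adjusted p = 0.0309).

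Ms4a4a, the Dectin-1 partner, had 12.2, 14.4, 21.1 and 32.4 CPM in Aldara 1 to 4, against 8.11, 13.4, 19.4 and 12.7 CPM in Vehicle 1 to 4. The groups overlapped, with Aldara 1 and 2 inside the Vehicle range. The mean was 20.01 ± 9.06 CPM in Aldara and 13.4 ± 4.62 CPM in Vehicle (SD, n = 4 each), with a log2 fold change of 0.57 (SE 0.34, adjusted p = 0.340).

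**Figure D1:**
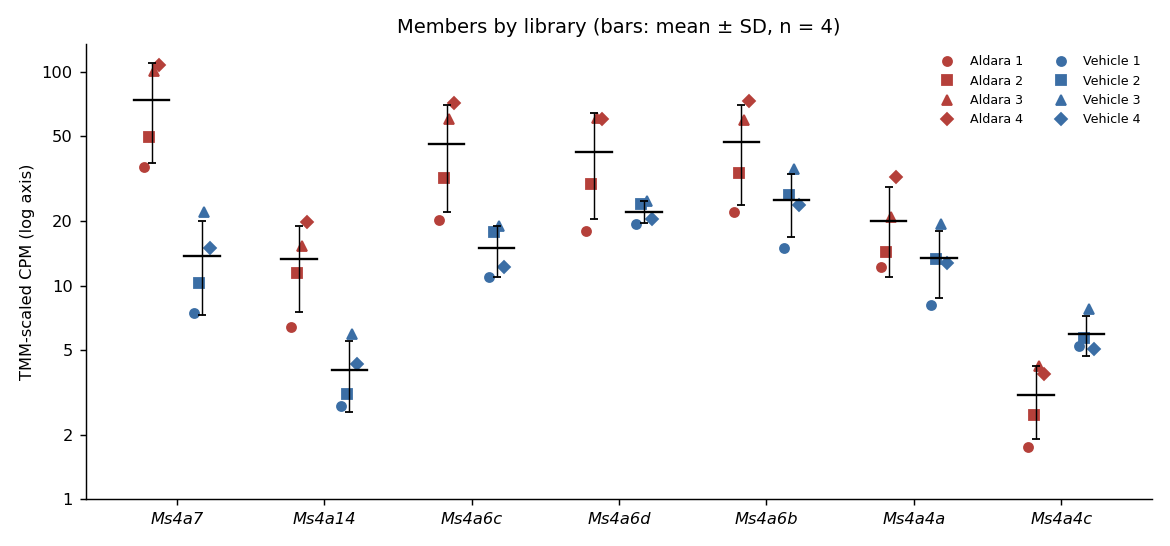
TMM-scaled CPM of each member on a log axis, with a point for each library, Aldara left of Vehicle, and bars for the mean ± SD of 4 libraries. Ms4a7 separates fully, with 35.9 to 108 CPM in Aldara and 7.41 to 22.1 CPM in Vehicle, while Ms4a4c is lower in every Aldara library.

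**Figure D2:**
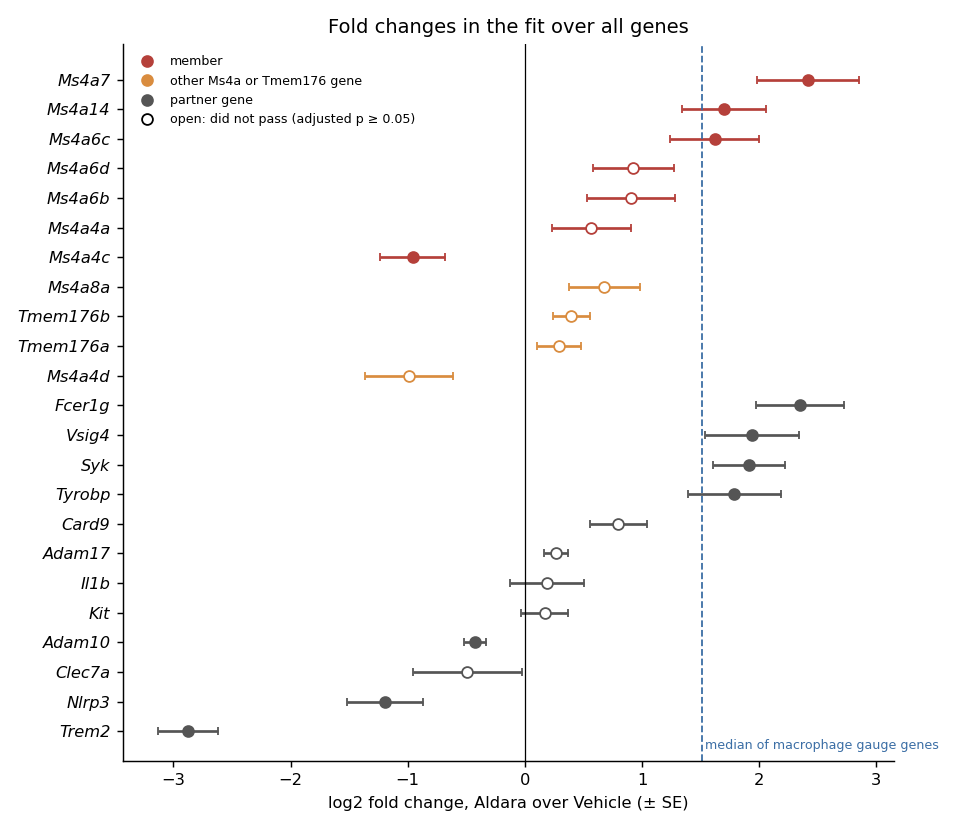
Log2 fold change (Aldara over Vehicle) with its SE for the members and for other listed genes, from the fit over all genes. Among the members the values run between 2.42 for Ms4a7 and -0.96 for Ms4a4c.

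The members varied together between the libraries of a group. All 7 lay below their group mean in Aldara 1 and in Aldara 2 (median deviation -0.92 and -0.33 on the log2 scale), and all 7 above it in Aldara 3 and 4 (0.53 and 0.70). In Vehicle, all 7 lay below the mean in Vehicle 1 (-0.49) and above it in Vehicle 3 (0.54). The 16 macrophage genes were lowest in Aldara 1 and in Vehicle 1 too. The spread of the members within a group thus moved with the level of other macrophage genes, and the part of macrophage content in it was not tested.

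Set against those 16 genes in the same library, the members divided. Ms4a7 was at -1.87 relative to them in Aldara and -2.73 in Vehicle (mean difference of log2 CPM), a difference of 0.86 with no overlap between the groups. Ms4a14 (-4.30 in Aldara, -4.42 in Vehicle) and Ms4a6c (-2.56 in Aldara, -2.52 in Vehicle) differed by 0.12 and -0.04, with overlapping groups. The other 4 lay lower in every Aldara library than in any Vehicle library, with a difference of -0.71 for Ms4a6b, -0.77 for Ms4a6d, -0.99 for Ms4a4a and -2.52 for Ms4a4c. These differences carry no test, since 11 of the 16 genes rose in the same contrast. A gene at an unchanged level would lie lower in every Aldara library too. The share of all tested genes that did so was not counted. Set against 15 genes of all leukocytes instead, Ms4a7 still lay higher by 0.60, but its groups overlapped. The other 6 members lay lower, with overlapping groups for Ms4a14 (-0.14) and Ms4a6c (-0.31).

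**Figure D3:**
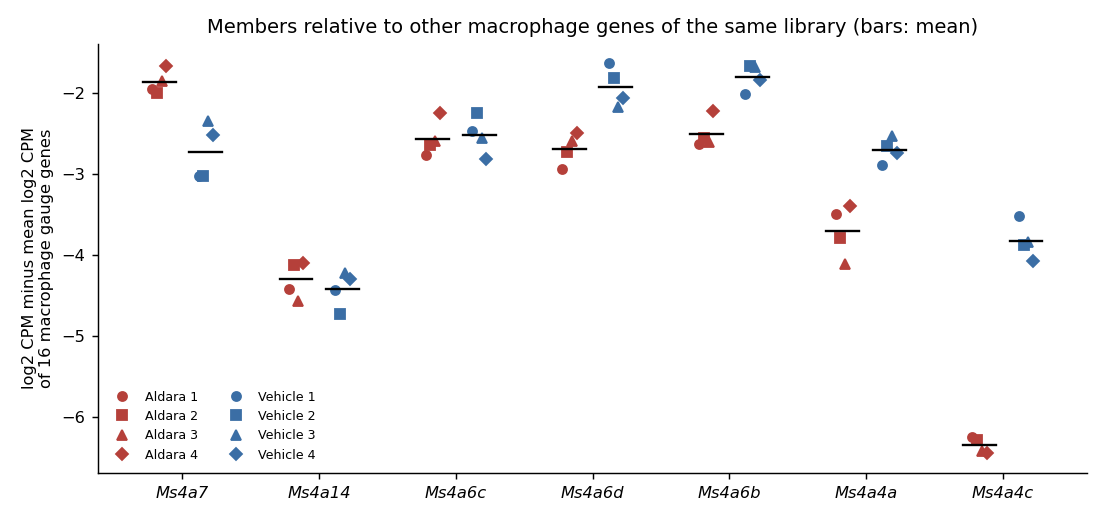
Log2 CPM of each member minus the mean log2 CPM of 16 macrophage genes in the same library, with Aldara left of Vehicle and bars for group means. Ms4a7 is higher in Aldara (-1.87, against -2.73 in Vehicle), and Ms4a4c is lowest in Aldara (-6.35, against -3.83 in Vehicle).

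Levels of different members are compared per kilobase of exon. Summed over the members, they came to 50.5, 72.9, 132 and 156 CPM per kilobase in Aldara 1 to 4, against 34.9, 50.8, 65.5 and 45.6 in Vehicle 1 to 4. Aldara 1 lay within the Vehicle range. In Aldara the order per kilobase was Ms4a6d (24.4 ± 12.5, SD, n = 4), Ms4a4a (23.9 ± 10.8), Ms4a6c (22.5 ± 11.8), Ms4a7 (16.6 ± 8.18) and Ms4a6b (10.5 ± 5.20), then Ms4a14 (3.26 ± 1.42) and Ms4a4c (1.75 ± 0.656). Neighbours in this order overlapped except at the step between Ms4a6b and Ms4a14. In Vehicle it was Ms4a4a (16 ± 5.53), Ms4a6d (12.8 ± 1.54), Ms4a6c (7.31 ± 1.97), Ms4a6b (5.6 ± 1.84), Ms4a4c (3.38 ± 0.727), Ms4a7 (3.08 ± 1.44) and Ms4a14 (0.989 ± 0.358). There the ranges parted between Ms4a6d and Ms4a6c and between Ms4a7 and Ms4a14, and other neighbours overlapped. The annotated exons of Ms4a4a span only 836 bases, against 4485 of Ms4a6b, and places in the order depend on the annotation. With the length of the longest transcript instead, a choice added after seeing the data, Ms4a6c (25.1) came before Ms4a4a (23.9) in Aldara, and Ms4a7 (3.8) before Ms4a4c (3.44) in Vehicle.

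The sum overlapped between the groups, whereas the shares of 4 members did not. Ms4a7 held 16 ± 0.884% of the summed level in Aldara and 6.07 ± 1.62% in Vehicle (SD, n = 4 each). Ms4a6c held 21.4 ± 1.33% in Aldara and 14.9 ± 1.71% in Vehicle. Reads over the bases it shares with BE692007 may have been counted to either gene or to neither. The level of Ms4a6c per kilobase, its place in the order and its share are uncertain to that extent. Ms4a4c held 1.78 ± 0.265% in Aldara and 7.0 ± 1.04% in Vehicle. The fourth was Ms4a14. The shares of Ms4a4a (24.1 ± 4.06% in Aldara, 32.0 ± 3.23% in Vehicle), Ms4a6d (23.3 ± 2.49% in Aldara, 26.8 ± 4.24% in Vehicle) and Ms4a6b (10.2 ± 0.263% in Aldara, 11.2 ± 1.10% in Vehicle) overlapped between the groups.

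**Figure D4:**
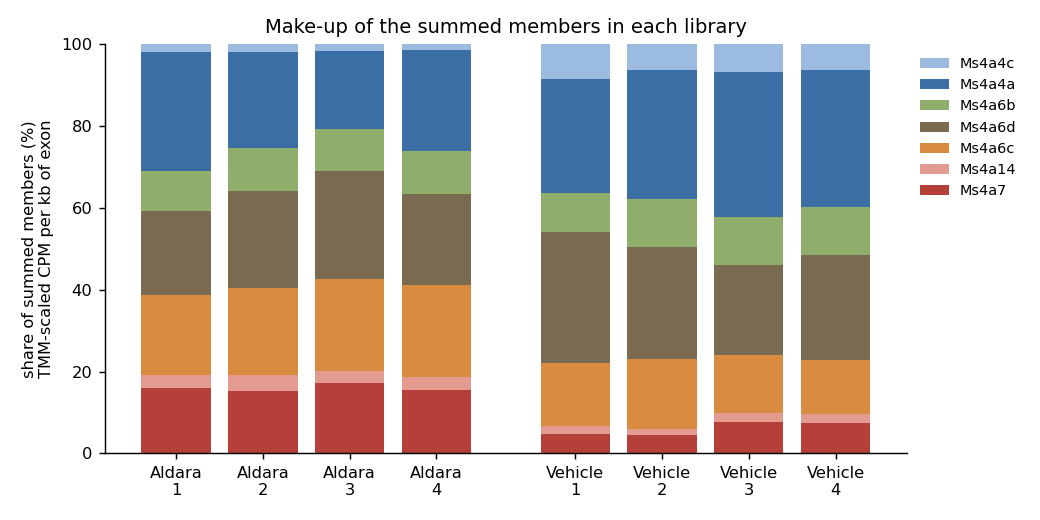
Share of each member in the summed members (percent of TMM-scaled CPM per kilobase of exon), with a stacked bar for each library, Aldara 1 to 4 left of Vehicle 1 to 4. Ms4a7 takes 15.3% to 17.3% in Aldara and 4.56% to 7.57% in Vehicle.

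Members were also set against each other by raw counts within a library, a ratio that no scaling factor touches. Ms4a6c had 0.912, 0.942, 1.01 and 0.987 counts per count of Ms4a6b in Aldara 1 to 4, against 0.730, 0.667, 0.544 and 0.510 in Vehicle 1 to 4. Every Aldara library was above every Vehicle library, and part of the reads counted as Ms4a6c may be of its antisense partner. Ms4a4c had 0.143, 0.172, 0.199 and 0.118 counts per count of Ms4a4a in Aldara 1 to 4, against 0.642, 0.423, 0.402 and 0.395 in Vehicle 1 to 4, again with no overlap. Ms4a7 had 2.94, 3.46, 4.83 and 3.34 counts per count of Ms4a4a in Aldara 1 to 4, against 0.913, 0.771, 1.14 and 1.17 in Vehicle 1 to 4. By contrast, Ms4a6d against Ms4a6b ran between 0.810 and 1.01 in Aldara and between 0.710 and 1.3 in Vehicle, which overlap. The pairs were chosen with the fold changes known, and the ratios carry no test.

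**Figure D5:**
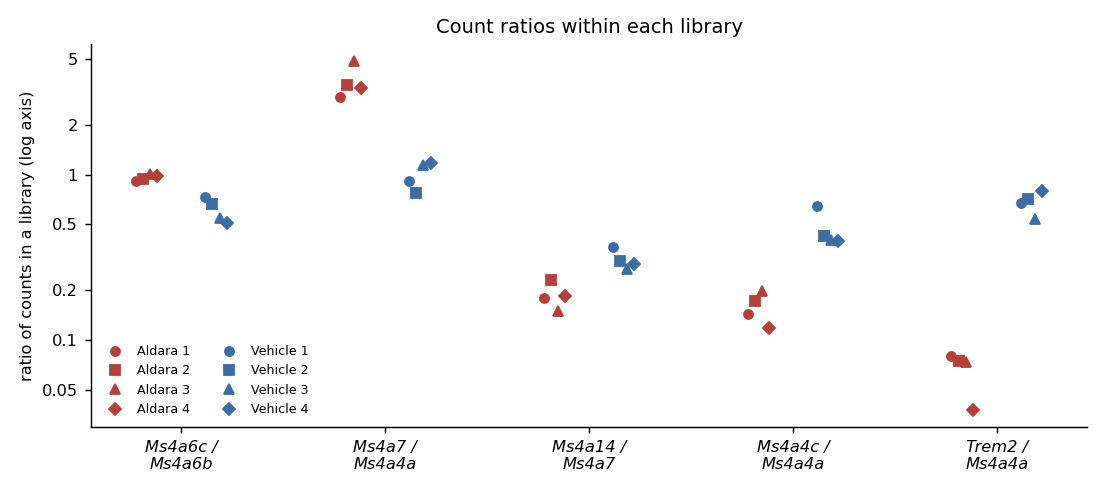
Ratio of the counts of 2 genes within each library on a log axis, a point for each library, Aldara left of Vehicle. Ms4a4c over Ms4a4a lies at 0.118 to 0.199 in Aldara and 0.395 to 0.642 in Vehicle.

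Of 18 further names of the Ms4a and Tmem176 family, 16 had a row and 4 were tested. By edgeR 0 of these 4 passed, 2 had an unadjusted p under 0.05, and DESeq2 and limma-voom called 0 as well. Ms4a8a, found in alternatively activated macrophages of the mouse, had 5.59, 9.09, 14.6 and 13.9 CPM in Aldara 1 to 4, against 4.36, 7.08, 8.84 and 6.52 CPM in Vehicle 1 to 4 (log2 fold change 0.68, SE 0.31, adjusted p = 0.193). It passed with libraries paired by replicate number (adjusted p = 0.0309) and without Aldara 1 (0.0345). Ms4a4d was low, at 0.499 ± 0.147 CPM in Aldara and 0.988 ± 0.370 CPM in Vehicle (SD, n = 4 each, log2 fold change -0.99, adjusted p = 0.122). The more distant relatives Tmem176a and Tmem176b were far higher. Tmem176a had 368 ± 59.1 CPM in Aldara and 301 ± 84.7 CPM in Vehicle (adjusted p = 0.372), and Tmem176b had 562 ± 109 CPM in Aldara and 426 ± 71.4 CPM in Vehicle (adjusted p = 0.134).

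The lymphoid and granulocyte relatives were close to silent. Ms4a1 (CD20) had 1, 3, 2 and 1 counts in Aldara 1 to 4, against 0, 0, 4 and 3 in Vehicle 1 to 4. Ms4a4b, a T cell gene, had 5, 0, 6 and 9 counts in Aldara 1 to 4, against 1, 6, 11 and 11 in Vehicle 1 to 4. Ms4a2 of mast cells and basophils, Ms4a3 of granulocyte-monocyte progenitors and Ms4a5, Ms4a10, Ms4a12, Ms4a13, Ms4a18 and Ms4a19 had 0 counts in all 8 libraries, which allows up to 0.0870 to 0.154 CPM in a library (3 counts). Of 10 B cell markers only 3 had enough counts to be tested, and these 3 rose, beside 6.98% of all tested genes. The filter can pass a gene through the Aldara group alone, so nothing is read from this count. With no filter on low counts 10 were fitted and 2 rose. Among the 3 tested markers Cd79b was at 5.95 ± 2.71 CPM in Aldara and 0.408 ± 0.141 CPM in Vehicle (SD, n = 4 each). Ighm was at 111 ± 42.8 CPM in Aldara and 34.3 ± 8.49 CPM in Vehicle. The 10 markers summed to 67.5 to 161 CPM in Aldara and 26.6 to 46.3 CPM in Vehicle, mostly Ighm. Their part in the members' rise was not tested. Of 12 T cell markers 4 were tested and 0 passed with edgeR, with 0 at an unadjusted p under 0.05 and 0 called by DESeq2, and they summed to 5.62 to 9.51 CPM in Aldara and 6.31 to 7.85 CPM in Vehicle. Neutrophil markers summed to 19 to 57.8 CPM in Aldara and 5.25 to 11.9 CPM in Vehicle, mostly Csf3r, with Ly6g at 0 counts in all libraries, and their part was not tested.

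Of 13 genes linked to MS4A proteins, directly or through another gene, 12 were tested. Of these 4 rose and 3 fell, with a median log2 fold change of 0.23. Over all tested genes 6.98% rose and 3.86% fell. The list was chosen with earlier results of these data known, so nothing is read from these counts. Clec7a, the Dectin-1 receptor that MS4A4A binds, had 2.60, 5.06, 13.1 and 9.42 CPM in Aldara 1 to 4, against 5.44, 10.4, 15.0 and 11.3 CPM in Vehicle 1 to 4 (log2 fold change -0.49, SE 0.46, adjusted p = 0.567). Syk, its kinase, rose to 144 ± 59.0 CPM in Aldara, against 38.3 ± 9.09 CPM in Vehicle (SD, n = 4 each, log2 fold change 1.91, SE 0.31, adjusted p = 0.00666). Card9, the adaptor below Syk, had 8.37 ± 2.84 CPM in Aldara and 4.80 ± 0.659 CPM in Vehicle and did not pass (adjusted p = 0.0590). Card9 passed with libraries paired by replicate number (0.0353), with DESeq2 (0.0190), with no filter on low counts (0.0334) and without Aldara 1 (0.00767). It did not pass with limma-voom (0.106), other scaling factors or any other library left out. Fcer1g, the chain that Fc receptors share, rose to 219 ± 112 CPM in Aldara, against 43.0 ± 10.1 CPM in Vehicle (SD, n = 4 each, log2 fold change 2.35, SE 0.37, adjusted p = 0.00638). Fcer1a, the IgE-binding chain that Ms4a2 accompanies, was not tested, with 0 to 3 counts in Aldara and 0 in every Vehicle library. Clec7a had 0.213 to 0.621 counts per count of Ms4a4a in Aldara and 0.671 to 0.889 in Vehicle, with no overlap.

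Trem2, a lipid-sensing receptor whose soluble form is linked to the human MS4A locus, fell. It had 0.982, 1.08, 1.56 and 1.22 CPM in Aldara 1 to 4, against 5.49, 9.55, 10.5 and 10.1 CPM in Vehicle 1 to 4. No Aldara library came near the Vehicle range (log2 fold change -2.88, SE 0.25, adjusted p = 0.000794). Per count of Ms4a4a, Trem2 had 0.0378 to 0.0804 counts in Aldara and 0.541 to 0.793 in Vehicle. Tyrobp, its signalling adaptor, rose, with 108 ± 50.4 CPM in Aldara and 31.1 ± 13.5 CPM in Vehicle (SD, n = 4 each, adjusted p = 0.0221). That call was lost without Aldara 3 or 4 or Vehicle 1, 2 or 4 (adjusted p up to 0.0803), and with no filter on low counts (0.115). Adam10, a protease that sheds TREM2, fell modestly, with 461 ± 19.2 CPM in Aldara and 617 ± 46.9 CPM in Vehicle (SD, n = 4 each, log2 fold change -0.42, adjusted p = 0.0173), a call lost without Aldara 3 (0.0566) or Vehicle 2 (0.0530). Adam17, which sheds TREM2 too, lay the other way, with 92.6 ± 13.2 CPM in Aldara and 77.0 ± 3.29 CPM in Vehicle (SD, n = 4 each, log2 fold change 0.26, SE 0.10). All its Aldara libraries were above all Vehicle libraries, but it did not pass the test (adjusted p = 0.129). Kit, the stem cell factor receptor, had 289 ± 82.6 CPM in Aldara and 257 ± 37.2 CPM in Vehicle (SD, n = 4 each, adjusted p = 0.655). Of 9 mast cell markers, Kit among them, 2 were tested and 1 rose. Which cells the Kit reads came from was not tested.

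Of the genes tied to Ms4a6d, Vsig4 rose, with 3.07, 4.22, 5.15 and 4.2 CPM in Aldara 1 to 4, against 0.422, 0.868, 2.12 and 0.771 CPM in Vehicle 1 to 4 (log2 fold change 1.94, SE 0.40, adjusted p = 0.0130). Nlrp3, the inflammasome sensor, fell, with 7.94, 14.4, 26.7 and 20.1 CPM in Aldara 1 to 4, against 30.5, 38.7, 50.9 and 37.9 CPM in Vehicle 1 to 4 (log2 fold change -1.19, SE 0.32, adjusted p = 0.0458). The groups of each did not overlap, though the Nlrp3 call was lost without Aldara 2, Aldara 4 or any Vehicle library (adjusted p up to 0.120), and with no filter on low counts (0.185). Il1b had 62.1 ± 29.2 CPM in Aldara and 54.3 ± 15.9 CPM in Vehicle (SD, n = 4 each, log2 fold change 0.19, SE 0.31, adjusted p = 0.763).

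The genes whose pattern over the 8 libraries was most like each member were taken from 10995 protein-coding genes with at least 5 CPM, by the root mean square difference of centred log2 CPM. For Ms4a7 they were Susd1 (0.18) and the inhibitory myeloid receptor Clec12a (0.20), beside a median of 1.36 over all these genes. Ms4a6c lay closest to Dnah2 (0.16) and Inpp5d (0.17), the gene of the phosphatase SHIP of blood cells, beside a median of 0.96. Ms4a4c lay closest to the monocyte chemokine gene Ccl8 (0.17) and to Nlrp3 (0.22), beside a median of 0.67. Ms4a6d lay closest to the nucleoside carrier gene Slc28a2 (0.11) and to Irf4 (0.14). Ms4a6b was nearest to Ccl9 (0.14) and to the inhibitory Fc receptor gene Fcgr2b (0.15), and Ms4a14 to Ticam2 (0.15), which encodes an adaptor of Toll-like receptor 4. Among the members, Ms4a4a and Ms4a6b were the closest pair (0.22) and Ms4a4c and Ms4a7 the farthest (1.73). These distances take in the difference between the groups and the spread within them.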

How the data were processed

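RNA-seq counts of 8 libraries were used. The authors deposited raw integer counts per gene. The mm10 build, featureCounts 1.5.0-p3, HISAT2 2.0.5 and DESeq2 (no version) are listed in the submitters' processing notes; how reads were counted is not given in the sources used here. Per the labels, the kit was SMARTer Ultra Low Input with poly-A enrichment, which does not mark the strand. GENCODE M21 (GRCm38) named 52073 of 56748 identifiers (91.8%), and unmatched identifiers held 0.709% to 1.29% of a library's counts.

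Genes were filtered with filterByExpr (16780 left), scaled with TMM (factors 0.957 to 1.03) and tested with the robust quasi-likelihood F test of edgeR 4.0.16 in R 4.3.3, with SE derived from the F statistic. DESeq2 1.42.0, limma-voom (limma 3.58.1), other factors, no filter, a replicate block and leaving out each library were alternatives. Log2 CPM used a prior count of 2. The members and lists were chosen with earlier results of these data known. Members, tested relatives and the tested genes linked to MS4A proteins are all given. Of each other list, the 2 tested genes of highest mean CPM and the 2 of smallest p were open to naming. Defining markers at 0 are named as well. The procedure was tested on simulated data. The genes nearest in pattern to Ms4a4a are not reported here.

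No pair of libraries of a group was a duplicate (chi-square per degree of freedom at least 20.2). Groups share replicate numbers in the labels, which do not say whether the numbers pair the libraries. Deviations from group means correlated at 0.108 to 0.228 in the 4 same-numbered pairs, against -0.216 to 0.0819 in the 12 others. The main fit leaves this pairing out, and so do the fits with a library left out. Only the alternative with a replicate block takes it in. Intervals of counts and floors leave out amplification, as the reads have no molecular identifiers, and so describe counting error only.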

Additional observations from a re-analysis of the deposited data

Results flagged for a closer look

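Ms4a4d had 0.279 CPM in Aldara 2, below the 0.555 to 0.585 CPM of the other 3 Aldara libraries. These values rest on 7 counts in Aldara 2 and on 13, 14 and 11 counts in Aldara 1, 3 and 4, so counting error is large. The gap made up 0.901 of the range of the group, above Dixon's 95% critical value for 4 samples. It was the only such case among 24 groups examined, and chance gives about 1 in 20.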

How the results depend on the processing

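All 98 member values under the alternatives kept their direction; 78 also kept their side of the threshold, 17 lost it and 3 gained it. Members rising numbered 3, 4 with DESeq2 or the replicate block, 0 with no filter on low counts and 1 to 4 with a library left out. Members falling numbered 1, and 0 to 1 with a library left out. Among the other family genes 0 rose, 1 with the replicate block (Ms4a8a) and 0 to 1 with a library left out. Of all genes 1171 rose and 647 fell; 629 to 1405 rose and 323 to 664 fell with a library left out. Falls numbered 1198 with DESeq2, 1030 with the replicate block and 990 with upper-quartile factors, where 979 rose. The replicate block changed the call of no member other than Ms4a6b. The difference between groups in the median member's level relative to the macrophage genes was 0.01 (-0.06 to 0.09 with a library left out) and -0.25 relative to the leukocyte genes. That median falls on different members in the groups; the median of the members' own differences, added after seeing the data, was -0.71. The log2 ratio of the summed members was 1.07, and 0.79 to 1.29 with a library left out. Il1b lay between -0.17 (without Aldara 3) and 0.41 with a library left out; the cause was not tested. Depth limits Ms4a4d and the family genes with few counts.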

Other observations

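Genes of the settings in which Ms4a genes are usually discussed moved in part. Of 10 tested monocyte genes 1 rose and 2 fell (median log2 fold change -0.24); with libraries paired by replicate number 2 rose and 2 fell. Plac8 fell, with 24.8 ± 2.77 CPM in Aldara and 51.4 ± 12.3 CPM in Vehicle (SD, n = 4 each, adjusted p = 0.00518). Spn (CD43) rose, with 9.72 ± 4.45 CPM in Aldara and 0.952 ± 0.533 CPM in Vehicle (adjusted p = 0.00400). The other 7 did not pass, among them Nr4a1 (log2 fold change 0.14, adjusted p = 0.556) and F13a1 (0.85, adjusted p = 0.103). Of 12 genes of resident macrophages 3 rose and 0 fell by edgeR, with 7 at an unadjusted p under 0.05. With libraries paired by replicate number 8 rose, and DESeq2 called 7. The 3 include the lectin genes Cd209f (log2 fold change 1.69, adjusted p = 0.0119) and Cd209g (2.68, adjusted p = 0.00386).

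Of 18 genes of the type I interferon response 5 rose and 1 fell, with a median log2 fold change of 0.32. Irf7 rose to 84.4 ± 11.3 CPM in Aldara, against 59.8 ± 5.57 CPM in Vehicle (SD, n = 4 each, adjusted p = 0.0164), and Rtp4 to 27.2 ± 0.910 CPM in Aldara, against 16.8 ± 2.74 CPM in Vehicle (adjusted p = 0.00647). Ifit2 fell, with 12.9 ± 0.995 CPM in Aldara and 20.3 ± 2.13 CPM in Vehicle (adjusted p = 0.00627).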
